A study of Homo sapiens with 10 samples.

Results

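The mitochondrial respiratory chain and ATP synthase are built from 5 protein complexes, and most of their subunits are encoded by nuclear genes. These nuclear-encoded subunit genes were compared between control and DDX41-depleted cells. Members were the protein-coding genes whose symbols start with NDUFA, NDUFB, NDUFC, NDUFS or NDUFV and a number, with UQCR, with COX4 to COX8, or with ATP5M or ATP5P, together with SDHA to SDHD, CYC1 and ATP5F1A to ATP5F1E. The rule uses names and no measured value, and 89 of the 63299 genes in the count tables met it. They comprise 37 genes of complex I, 4 of complex II, 10 of complex III, 19 of complex IV and 19 of complex V. NDUFA4, NDUFA4L2 and COX7A2L were counted with complex IV. The symbols also take in 9 isoform or retrocopy genes known mainly from particular tissues and 2 readthrough genes that join a subunit gene to its neighbour.

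The RNA came from U2OS cells, an established human osteosarcoma line, transfected with a pool of siRNAs. In 5 libraries the pool was a control (siCtrl), in the other 5 it was directed against the RNA helicase DDX41 (siDDX41), and cells were taken after 48 hours. Stranded libraries of polyadenylated RNA were sequenced, and the labels do not say whether the 5 replicates of a group were separate transfections, so they may be technical. Total counts lay between 23393764 and 24598860 per siCtrl library and between 21807041 and 24896398 per siDDX41 library. Levels are given as CPM, the usual counts scaled to a common library total, with library sizes adjusted by the trimmed mean of M values. A gene is said to have risen or fallen where the quasi-likelihood test of edgeR, adjusted over the 16143 genes with enough counts to be tested, gave an adjusted p under 0.01.

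Complex I oxidises NADH and complex II oxidises succinate, and both pass electrons to coenzyme Q. Complex III hands them on to cytochrome c, complex IV uses them to reduce oxygen to water, and the proton gradient built by complexes I, III and IV drives ATP synthase, also called complex V. Complexes I, III, IV and V combine nuclear-encoded subunits with a few encoded in mitochondrial DNA, whereas complex II is wholly nuclear-encoded.

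DDX41 itself was read at 49.1, 49.4, 47.4, 47.1 and 50.5 CPM in siCtrl libraries 1 to 5 and 11.4, 13.7, 12.4, 11.2 and 12.3 CPM in siDDX41 libraries 1 to 5. Every siDDX41 library lay far under every siCtrl library (log2 fold change -1.99, SE 0.049, adjusted p = 4.47e-24). Markers of the labelled cell type were checked in the same libraries. The 6 mesenchymal markers summed to between 8694 and 9020 CPM in siCtrl and between 8605 and 8908 CPM in siDDX41, with SPARC the most abundant, although COL1A2 averaged only 0.448 CPM in siCtrl. The 4 epithelial markers summed to between 13.4 and 14.9 CPM in siCtrl and between 8.86 and 10.8 CPM in siDDX41, mostly EPCAM, with KRT20 at 0 and KRT5 lower in siDDX41 (log2 fold change -3.41, SE 0.14, adjusted p = 1.43e-18). The 4 blood markers summed to between 0.245 and 0.421 CPM in siCtrl and between 0.391 and 0.639 CPM in siDDX41, and CD3E and HBB had no count. The 4 striated muscle markers summed to between 22.5 and 26.2 CPM in siCtrl and between 24.6 and 32.0 CPM in siDDX41, nearly all of it TNNT2. Single markers moved in both directions: SPARC (log2 fold change 0.18, SE 0.024, adjusted p = 1.42e-07) and TNNT2 (log2 fold change 0.22, SE 0.07, adjusted p = 0.00846) rose, while RUNX2 (log2 fold change -0.40, SE 0.043, adjusted p = 2.24e-09), VIM (log2 fold change -0.087, SE 0.024, adjusted p = 0.00175) and MB (log2 fold change -1.81, SE 0.28, adjusted p = 1.04e-06), which averaged under 1 CPM, fell. Any part of these marker changes in the values of the subunit genes was not tested. In bulk RNA, fewer cells with a transcript and less of it per cell cannot be told apart.

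Most subunit genes were higher after DDX41 depletion, by small amounts, and a few were lower, one of them strongly. Of the 75 members that could be tested, 50 rose (66.7%) and 5 fell (6.67%), while 30.3% of all tested genes rose and 32.1% fell. The median log2 fold change of the tested members was 0.18, beside -0.001 over all tested genes, and the 50 that rose had a median of 0.25. All 5 siDDX41 libraries were above all 5 siCtrl libraries in 44 tested members and below them in 6, beside 26.7% and 29.3% of all tested genes. With a minimum size of 0.25 on the log2 scale added to the adjusted p, 26 members rose and 3 fell, beside 21.1% and 25.4% of all tested genes. The 5 that fell were COX7A2L, CYC1, NDUFB11, UQCRC1 and NDUFS3. Members given in full below follow a rule on the size of the change or belong to a set given in full. These sets include the SDH genes, the c ring genes and the complex IV isoforms. Outside the members, CYCS and MT-CO3 are given in full because they had the smallest adjusted p of their lists. Members named only because they make up a count of 5 or fewer were chosen after their values were seen.

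**Figure D1:**
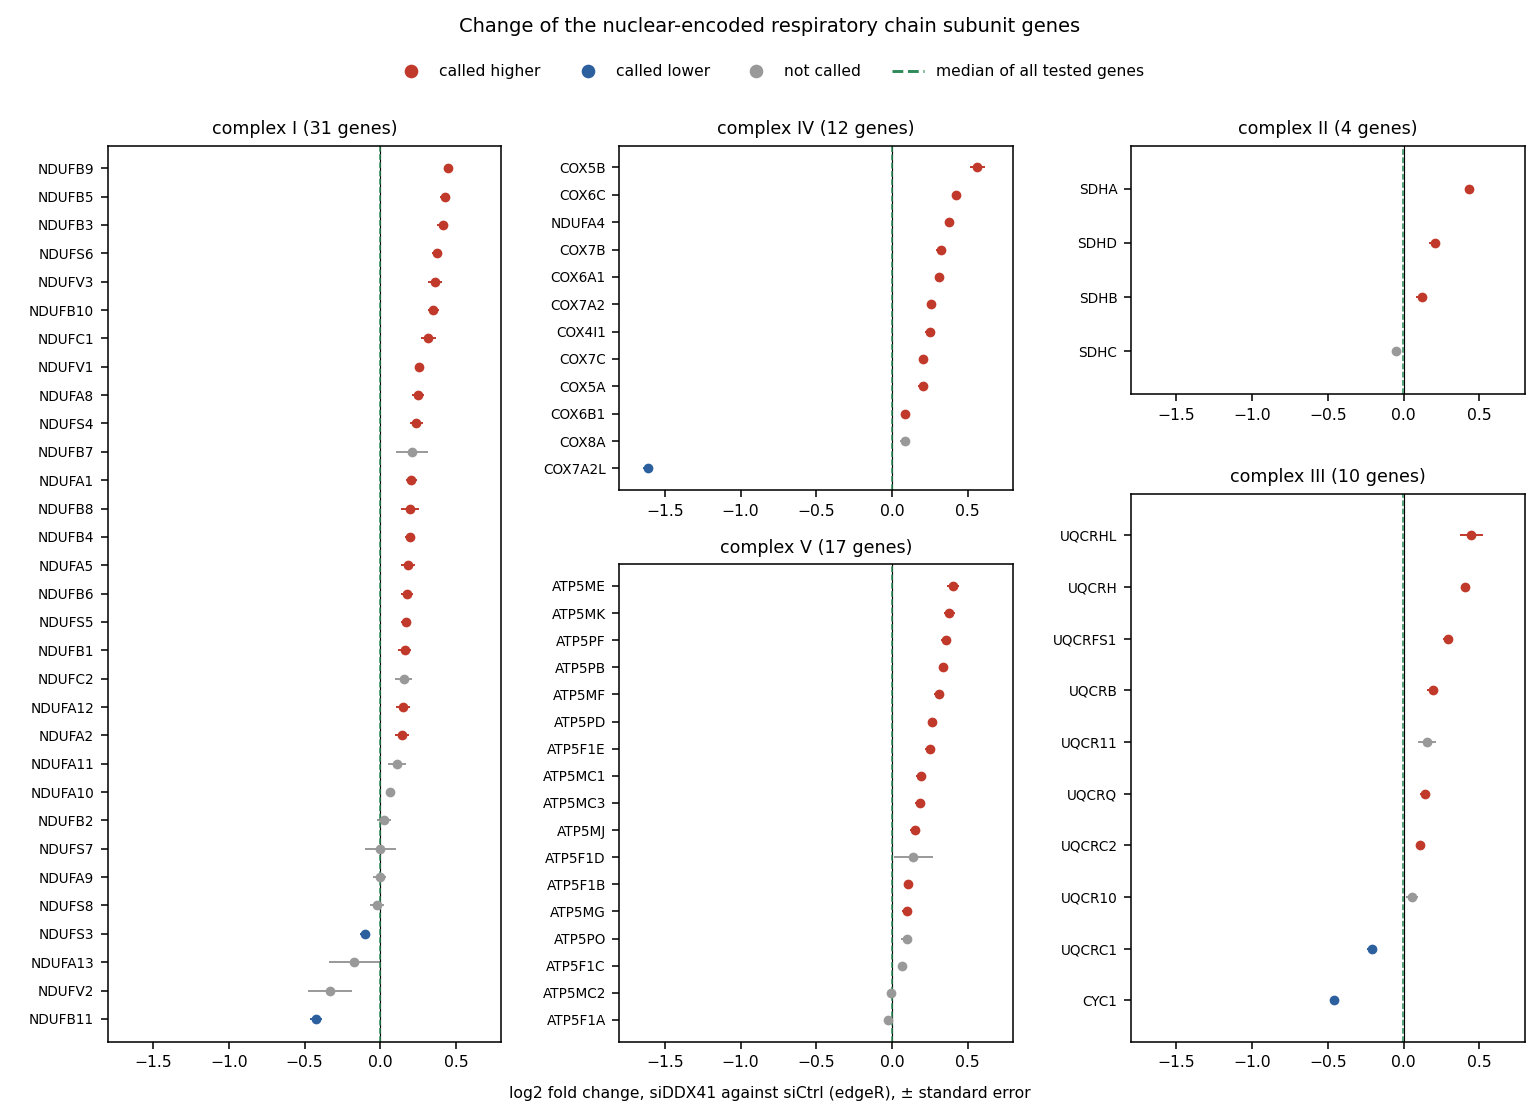
Log2 fold change of siDDX41 against siCtrl (horizontal axis, with standard error) for 74 of the 75 tested subunit genes, by complex. Of the points, 50 are called higher (red), 5 called lower (blue) and 19 not called (grey), and COX7A2L at -1.61 stands farthest from 0.

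Stretches of the promoters are shown for 6 members, the one that fell most and, for each complex, the member with the largest increase among those with a suitable stretch. They let a reader see DNA before an annotated start of genes that moved in the same or in opposite directions. The sequences are from RefSeq on GRCh38.p14, limited to bases before the annotated start that lie in no exon. COX7A2L, from 1 of its 2 windows, covers chr2:42369011-42369160 (minus strand), NDUFB3 covers chr2:201071851-201072000 (plus strand), and SDHA covers chr5:218154-218297 (plus strand). UQCRH covers chr1:46303617-46303697 (plus strand), COX5B covers chr2:97645912-97646061 (plus strand), and ATP5MK covers chr10:103396493-103396625 (minus strand). The COX7A2L and NDUFB3 stretches lie inside the annotated span of their gene, before a start within it, and not at its outer 5′ end. Each runs 5′ to 3′ on the strand of its gene, and capitals mark matches to the motifs described next.
COX7A2L: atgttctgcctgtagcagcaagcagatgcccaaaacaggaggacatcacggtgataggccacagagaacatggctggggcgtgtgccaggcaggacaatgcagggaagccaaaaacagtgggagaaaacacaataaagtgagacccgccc
NDUFB3: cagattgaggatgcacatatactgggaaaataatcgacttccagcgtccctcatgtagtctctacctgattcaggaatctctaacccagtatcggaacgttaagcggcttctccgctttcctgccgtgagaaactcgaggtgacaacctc
SDHA: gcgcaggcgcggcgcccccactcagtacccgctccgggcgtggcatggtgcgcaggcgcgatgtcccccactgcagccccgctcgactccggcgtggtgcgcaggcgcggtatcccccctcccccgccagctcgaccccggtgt
UQCRH: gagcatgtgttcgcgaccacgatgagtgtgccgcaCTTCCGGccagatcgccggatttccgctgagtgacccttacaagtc
COX5B: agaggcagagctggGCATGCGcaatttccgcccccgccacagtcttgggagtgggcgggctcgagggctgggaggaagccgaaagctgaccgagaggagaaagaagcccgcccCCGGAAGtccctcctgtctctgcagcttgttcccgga
ATP5MK: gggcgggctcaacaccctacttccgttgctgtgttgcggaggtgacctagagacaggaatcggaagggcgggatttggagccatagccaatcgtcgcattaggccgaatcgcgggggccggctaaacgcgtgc

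The 3 motifs searched, on both strands, were GCATGCG, the core bound by NRF1, CCGGAAG, the core bound by ETS factors such as GABPA, and GATGGCG, the core bound by YY1. Windows of 300 bases, from 250 before to 50 after a start, were available for 69 of the 89 members, in 82 windows. GCATGCG was in 18.3% of the members' windows, in 5.53% of the windows of tested genes and in 3.91% of all 35116 windows. CCGGAAG was in 26.8% of the members' windows, in 15.6% of those of tested genes and in 10.3% of all windows. GATGGCG was in 13.4%, 6.36% and 4.20% of the same sets. The COX5B stretch holds GCATGCG and CCGGAAG, and the UQCRH stretch holds CCGGAAG on the other strand. The printed stretches of COX7A2L, NDUFB3, SDHA and ATP5MK hold none of the 3. The whole window of ATP5MK does have a match to CCGGAAG, outside its printed stretch. Among the members with a window, 35 had none of the motifs and 8 had at least 2. Of the windows of members that rose, 20.8% held GCATGCG, 31.2% held CCGGAAG and 12.5% held GATGGCG. Of the 5 windows of members that fell, none held GCATGCG, 1 held CCGGAAG and 1 held GATGGCG. A match describes the letters in a window and does not show that a factor binds there.

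Complex I has core subunits, which carry the redox centres and bind NADH and coenzyme Q, and many accessory subunits around them. Of its 32 tested genes 19 rose and 2 fell, with a median log2 fold change of 0.17. The accessory genes made up 18 of the rises and 1 of the falls among 26 tested, with a median of 0.19. Of the 6 nuclear-encoded core genes tested, NDUFV1 rose, NDUFS3 fell and the other 4 passed in neither direction, with a median of -0.011. NDUFV2, 1 of these 4, had only 487 counts over all libraries. The core subunits encoded in mitochondrial DNA are not among these genes. They are described below with the other mitochondrially encoded subunits. The difference between core and accessory genes was not tested.

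NDUFB9, an accessory subunit of the membrane arm, was read at 241, 240.5, 229, 236 and 228 CPM in siCtrl libraries 1 to 5 and 331, 306, 319, 327 and 321 CPM in siDDX41 libraries 1 to 5. The groups did not overlap, and this was the largest rise in complex I (log2 fold change 0.45, SE 0.028, adjusted p = 9.31e-15). Of the exon bases of NDUFB9, 13.2% also lie in exons of TATDN1 on the opposite strand. NDUFB5, of the same arm, was read at 67.2, 71.9, 66.1, 67.3 and 67.7 CPM in siCtrl libraries 1 to 5 and 95.3, 90.6, 88.8, 91.7 and 90.2 CPM in siDDX41 libraries 1 to 5. Here the second siCtrl library was the highest of its group yet stayed under every siDDX41 library (log2 fold change 0.42, SE 0.032, adjusted p = 1.05e-12). NDUFB3, also of the membrane arm, was read at 37.0, 37.4, 36.5, 36.4 and 38.4 CPM in siCtrl libraries 1 to 5 and 51.0, 47.7, 49.1, 49.2 and 50.4 CPM in siDDX41 libraries 1 to 5. Its siDDX41 libraries were again all above the siCtrl libraries (log2 fold change 0.41, SE 0.036, adjusted p = 2.49e-11), and the stretch printed for it holds none of the motifs.

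NDUFB11, an accessory membrane-arm subunit encoded on the X chromosome, went the other way. It was read at 73.7, 81.2, 68.6, 75.3 and 80.0 CPM in siCtrl libraries 1 to 5 and 54.6, 56.2, 55.3, 57.0 and 59.1 CPM in siDDX41 libraries 1 to 5. All siDDX41 libraries were lower, and they varied less among themselves than the siCtrl libraries did (log2 fold change -0.42, SE 0.04, adjusted p = 1.44e-10). Its mean fell by 25.5%, next to rises in NDUFB3, NDUFB5 and NDUFB9 of the same arm.

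NDUFS3, a core subunit of the arm that reaches into the matrix, was read at 75.4, 77.4, 75.7, 75.5 and 74.9 CPM in siCtrl libraries 1 to 5 and 73.3, 68.2, 67.1, 73.3 and 70.8 CPM in siDDX41 libraries 1 to 5. The groups did not overlap, but the gap between the lowest siCtrl and the highest siDDX41 library was small (log2 fold change -0.10, SE 0.033, adjusted p = 0.0059). This call was lost without siCtrl replicate 1, 2 or 4 and without siDDX41 replicate 2, 3 or 5, with adjusted p from 0.00354 to 0.0351 when 1 library was left out and log2 fold changes from -0.12 to -0.084. It was also lost in 6 of 9 other settings, among them the Wald test of DESeq2, upper quartile scaling and a length correction, and the log2 fold change shrank to -0.026 with a GC correction. In these cases 1 rather than 2 complex I genes counted as lower. NDUFV1, the core subunit that binds NADH, averaged 102 ± 2.52 CPM in siCtrl and 122 ± 2.21 CPM in siDDX41 (SD, n = 5), with groups that did not overlap (log2 fold change 0.26, SE 0.029, adjusted p = 4.03e-09).

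Complex II is the succinate dehydrogenase of the citric acid cycle and has only 4 subunits, all tested. SDHA, SDHD and SDHB rose, SDHC did not pass, and the median log2 fold change was 0.16. No complex II gene fell in edgeR, at an unadjusted p under 0.05 (0 genes) or in DESeq2 (0 genes). SDHA, the flavoprotein that oxidises succinate, was read at 176, 170.2, 168, 172 and 179 CPM in siCtrl libraries 1 to 5 and 229.7, 226, 237, 235 and 239 CPM in siDDX41 libraries 1 to 5. The siDDX41 libraries were all well above the siCtrl libraries (log2 fold change 0.43, SE 0.027, adjusted p = 1.55e-14). Of the exon bases of SDHA, 21.7% are shared with another annotated gene on the same strand.

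SDHB, the iron-sulfur subunit, was read at 80.7, 83.3, 75.6, 83.3 and 75.1 CPM in siCtrl libraries 1 to 5 and 86.1, 82.3, 84.7, 90.7 and 88.8 CPM in siDDX41 libraries 1 to 5. The groups overlapped (log2 fold change 0.12, SE 0.036, adjusted p = 0.00377), and the call was lost without siCtrl replicate 3 or 5, without siDDX41 replicate 4 or 5, and with a filter at a mean of 5 CPM. Leaving out 1 library gave adjusted p from 0.00134 to 0.0208 and left 2 or 3 complex II genes called higher. SDHD, a membrane anchor, was read at 85.4, 90.2, 84.9, 89.0 and 84.4 CPM in siCtrl libraries 1 to 5 and 107, 93.2, 97.7, 105 and 98.3 CPM in siDDX41 libraries 1 to 5. Its second siDDX41 library was the lowest of that group but still above all siCtrl libraries (log2 fold change 0.21, SE 0.035, adjusted p = 6.53e-06). SDHC, the other anchor, was read at 78.3, 79.6, 77.1, 78.4 and 78.1 CPM in siCtrl libraries 1 to 5 and 76.9, 76.7, 73.6, 74.8 and 76.8 CPM in siDDX41 libraries 1 to 5. The siDDX41 libraries were all below the siCtrl libraries, by an amount that did not pass the test (log2 fold change -0.048, SE 0.03, adjusted p = 0.15). The 2 anchor genes thus differed in sign, SDHD higher and SDHC not called, and the difference between them was not tested.

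Complex III oxidises reduced coenzyme Q through cytochrome b, which is encoded in mitochondrial DNA, the Rieske protein and cytochrome c1. Of its 10 nuclear genes, all tested, 6 rose and 2 fell, with a median log2 fold change of 0.15. The genes that fell were CYC1 and UQCRC1. CYC1, which encodes cytochrome c1, was read at 255, 274, 238, 248 and 259.9 CPM in siCtrl libraries 1 to 5 and 184, 180.3, 186, 186 and 193 CPM in siDDX41 libraries 1 to 5. No siDDX41 library reached the lowest siCtrl library (log2 fold change -0.46, SE 0.032, adjusted p = 1.38e-13), and the mean fell by 27.1%. UQCRC1, a large subunit on the matrix side, was read at 228, 219.6, 204, 213 and 218 CPM in siCtrl libraries 1 to 5 and 189, 179.5, 180.3, 195 and 192 CPM in siDDX41 libraries 1 to 5. The groups were close but did not overlap (log2 fold change -0.21, SE 0.031, adjusted p = 7.12e-07), and with a GC correction the log2 fold change was -0.11, still called.

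UQCRH, the hinge protein next to cytochrome c1, was read at 115, 119, 114, 118 and 113 CPM in siCtrl libraries 1 to 5 and 163, 145, 149, 158 and 155 CPM in siDDX41 libraries 1 to 5. All siDDX41 libraries were higher (log2 fold change 0.41, SE 0.032, adjusted p = 1.66e-12), so UQCRH and CYC1, whose proteins are neighbours in the complex, moved in opposite directions. UQCRHL, an intronless copy of UQCRH, was read at 6.62, 6.20, 5.97, 6.16 and 5.33 CPM in siCtrl libraries 1 to 5 and 9.02, 8.38, 7.46, 8.22 and 8.34 CPM in siDDX41 libraries 1 to 5. Its libraries also did not overlap (log2 fold change 0.45, SE 0.077, adjusted p = 7.14e-06), but the sequences of UQCRH and UQCRHL are so alike that reads of 1 gene may have been counted for the other. UQCRFS1, the Rieske iron-sulfur protein, was read at 133, 132, 127, 133 and 128 CPM in siCtrl libraries 1 to 5 and 158, 154, 159.5, 168 and 160.2 CPM in siDDX41 libraries 1 to 5. It was higher in every siDDX41 library than in any siCtrl library (log2 fold change 0.29, SE 0.029, adjusted p = 3.23e-10).

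Complex IV, cytochrome c oxidase, has its catalytic core encoded in mitochondrial DNA, and its nuclear subunits surround that core. Of the 12 nuclear genes tested 10 rose and 1 fell, with a median log2 fold change of 0.26. The gene that fell was COX7A2L, whose protein is related to COX7A2 and takes part in joining complexes III and IV into supercomplexes. COX7A2L (chr2:42333546-42425088 on the minus strand) was read at 153, 162, 152, 159 and 153 CPM in siCtrl libraries 1 to 5 and 49.8, 52.0, 50.1, 52.9 and 49.6 CPM in siDDX41 libraries 1 to 5. The libraries within each group lay close together and the groups were far apart. Levels averaged 156 ± 4.50 CPM in siCtrl and 50.9 ± 1.48 CPM in siDDX41 (SD, n = 5), a mean that fell by 67.3% (log2 fold change -1.61, SE 0.032, adjusted p = 3.19e-26). Its relative COX7A2 was read at 122, 122, 119.9, 122 and 123 CPM in siCtrl libraries 1 to 5 and 149, 143, 139, 148 and 151 CPM in siDDX41 libraries 1 to 5. COX7A2 was higher in every siDDX41 library (log2 fold change 0.26, SE 0.028, adjusted p = 2.44e-09), opposite to COX7A2L.

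COX5B, a subunit on the matrix side that binds zinc, was read at 74.7, 88.7, 71.0, 76.2 and 78.7 CPM in siCtrl libraries 1 to 5 and 118, 114, 119, 108 and 117 CPM in siDDX41 libraries 1 to 5. It had the largest increase of any tested member, and the second siCtrl library, the highest of its group, was below every siDDX41 library (log2 fold change 0.57, SE 0.047, adjusted p = 1.99e-09). COX6C, a small membrane subunit, was read at 125, 126, 124, 133 and 127 CPM in siCtrl libraries 1 to 5 and 174, 163, 165, 175 and 173 CPM in siDDX41 libraries 1 to 5. All siDDX41 libraries were higher (log2 fold change 0.42, SE 0.03, adjusted p = 1.52e-13). NDUFA4, first described in complex I and now placed in complex IV, was read at 230.0, 239, 234, 238 and 229.8 CPM in siCtrl libraries 1 to 5 and 309.6, 296, 299, 303 and 311 CPM in siDDX41 libraries 1 to 5. The groups were again separate (log2 fold change 0.37, SE 0.026, adjusted p = 1.51e-13), and counting NDUFA4 with complex I would give 20 rises there and 9 in complex IV.

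Several complex IV subunits exist as a widely expressed isoform and a tissue-restricted one. The widely expressed COX4I1 averaged 277 ± 8.40 CPM in siCtrl and 329 ± 11.0 CPM in siDDX41 (SD, n = 5) and rose (log2 fold change 0.25, SE 0.028, adjusted p = 5.61e-09), while its lung isoform COX4I2 had no count. COX6A1 averaged 74.3 ± 0.955 CPM in siCtrl and 92.4 ± 3.95 CPM in siDDX41 and rose (log2 fold change 0.31, SE 0.032, adjusted p = 7.73e-10), while the heart and muscle isoform COX6A2 had no count. COX7B averaged 119 ± 5.04 CPM in siCtrl and 148 ± 4.70 CPM in siDDX41 and rose (log2 fold change 0.32, SE 0.032, adjusted p = 3.13e-10), with 1 count in all libraries together for COX7B2. The muscle isoform COX7A1 and the testis isoform COX8C also had no count, NDUFA4L2 had 31 counts and COX6B2, known from testis, 72 counts over the 10 libraries. Of the 9 tissue-restricted isoform or retrocopy genes, only UQCRHL had enough counts to be tested.

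COX6B1, which faces the intermembrane space, was read at 117, 121, 113, 115 and 116 CPM in siCtrl libraries 1 to 5 and 127, 119.9, 121, 122 and 129.6 CPM in siDDX41 libraries 1 to 5. The groups overlapped and the adjusted p was just inside the threshold (log2 fold change 0.089, SE 0.03, adjusted p = 0.00975). The call was lost without siCtrl replicate 1, 3, 4 or 5 and without siDDX41 replicate 1, 4 or 5, with adjusted p from 0.00443 to 0.0361 when 1 library was left out. It was also lost with total counts as the only scaling, with no filter on low counts and with a filter at a mean of 5 CPM. A length correction and the replicate numbers as a block likewise ended the call. The log2 fold change was 0.054 with a length correction and 0.17 with a GC correction. COX8A, a small membrane subunit, was read at 114, 106, 103, 106 and 112 CPM in siCtrl libraries 1 to 5 and 119.8, 108, 116, 113 and 118 CPM in siDDX41 libraries 1 to 5. Its groups overlapped and it was not called (log2 fold change 0.087, SE 0.033, adjusted p = 0.0221), whereas without siDDX41 replicate 2 it passed with an adjusted p of 0.00401. It also passed with upper quartile scaling and with a GC correction, and the log2 fold change ran from 0.034 (length correction) to 0.18 (GC correction). Exons of another gene on the same strand cover 35.4% of the exon bases of COX8A.

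**Figure D2:**
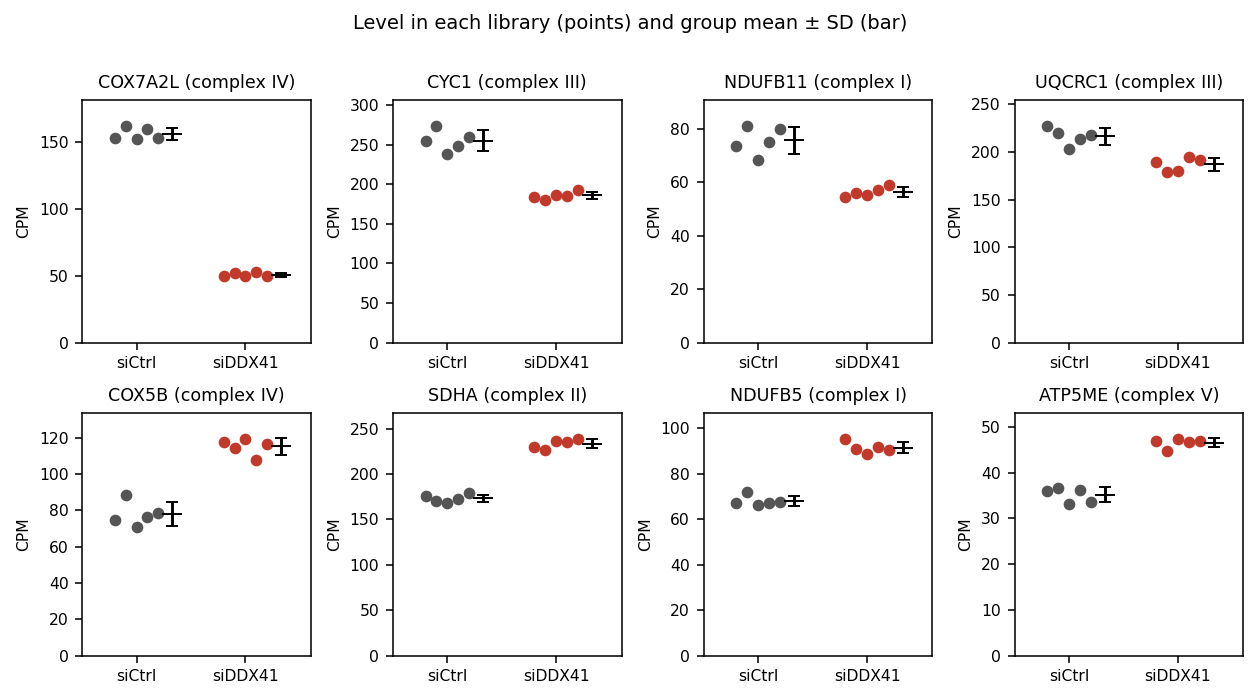
Level in CPM (vertical axis, from 0) in each siCtrl and siDDX41 library for COX7A2L, CYC1, NDUFB11, UQCRC1, COX5B, SDHA, NDUFB5 and ATP5ME, with points for libraries and bars for group mean and SD. COX7A2L lies between 152 and 162 CPM in siCtrl and between 49.6 and 52.9 CPM in siDDX41, and in the other 7 genes the groups are also separate.

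Complex V consists of a catalytic F1 head, a peripheral stalk, a ring of c subunits turned by protons, and small membrane subunits that help ATP synthase form dimers. Of its 17 tested genes 12 rose, with a median log2 fold change of 0.18. None fell in edgeR, at an unadjusted p under 0.05 (0 genes) or in DESeq2 (0 genes). The 5 membrane subunits ATP5ME, ATP5MF, ATP5MG, ATP5MJ and ATP5MK all rose, with a median of 0.31. In the peripheral stalk 3 of 4 rose, ATP5PB, ATP5PD and ATP5PF, with a median of 0.30, while ATP5PO did not pass. In the F1 head 2 of 5 rose, ATP5F1B and ATP5F1E, with a median of 0.11. Differences between these subgroups were not tested.

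ATP5ME, subunit e of the membrane part, was read at 36.1, 36.7, 33.1, 36.2 and 33.6 CPM in siCtrl libraries 1 to 5 and 46.9, 44.7, 47.4, 46.8 and 46.9 CPM in siDDX41 libraries 1 to 5. All siDDX41 libraries were higher, the second of them lying below the other 4 (log2 fold change 0.40, SE 0.039, adjusted p = 1.99e-10). Of the exon bases of ATP5ME, 61.3% are also exons of MYL5 on the opposite strand. ATP5MK, a small membrane subunit, was read at 69.5, 72.8, 69.2, 75.8 and 72.9 CPM in siCtrl libraries 1 to 5 and 101, 88.3, 92.4, 92.6 and 94.7 CPM in siDDX41 libraries 1 to 5. Its groups did not overlap (log2 fold change 0.38, SE 0.035, adjusted p = 9.58e-11). ATP5PF, coupling factor 6 of the peripheral stalk, was read at 95.0, 98.5, 93.7, 101 and 95.9 CPM in siCtrl libraries 1 to 5 and 129.6, 117, 120.4, 123 and 130.4 CPM in siDDX41 libraries 1 to 5. It was higher in each siDDX41 library than in any siCtrl library (log2 fold change 0.36, SE 0.033, adjusted p = 6.61e-11), and 37.3% of its exon bases are shared with GABPA on the opposite strand. The libraries were stranded, but how the counting treated strand is not stated in the sources used here.

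The c ring is built from a single mature protein that 3 genes encode with different import sequences. ATP5MC1 was read at 78.2, 77.8, 72.6, 74.9 and 78.2 CPM in siCtrl libraries 1 to 5 and 90.0, 81.9, 86.2, 86.0 and 91.6 CPM in siDDX41 libraries 1 to 5. It rose, with groups that did not overlap (log2 fold change 0.19, SE 0.034, adjusted p = 1.36e-05). ATP5MC3 was read at 174, 178, 165, 175 and 171 CPM in siCtrl libraries 1 to 5 and 206, 188, 198, 193 and 196 CPM in siDDX41 libraries 1 to 5. It rose by a similar amount (log2 fold change 0.18, SE 0.029, adjusted p = 1.96e-06), and by 0.12 on the log2 scale with a GC correction. ATP5MC2 was read at 265, 252, 249.7, 254 and 256 CPM in siCtrl libraries 1 to 5 and 257, 245, 246, 257 and 266 CPM in siDDX41 libraries 1 to 5. These groups overlapped widely and ATP5MC2 was not called (log2 fold change -0.007, SE 0.028, adjusted p = 0.834), although a correction for GC content turned its sign and gave 0.081 with an adjusted p of 0.00641. Per exon length, ATP5MC2 made up 47.0 ± 0.67% of the 3 genes in siCtrl and 43.7 ± 0.74% in siDDX41 (SD, n = 5). With the length of the canonical transcript the shares were 68.6 ± 0.54% and 65.6 ± 0.59%, and on both lengths each siDDX41 library lay under each siCtrl library.

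Across the 5 complexes, the tested genes that rose made up 59.4% in complex I, 75.0% in complex II, 60.0% in complex III, 83.3% in complex IV and 70.6% in complex V, each above the 30.3% of all tested genes. Those that fell made up 6.25% of complex I, 20.0% of complex III and 8.33% of complex IV, each below the 32.1% of all tested genes. The medians ran from 0.15 in complex III to 0.26 in complex IV. Complexes II and III rest on few genes, and the differences between complexes were not tested.

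**Figure D3:**
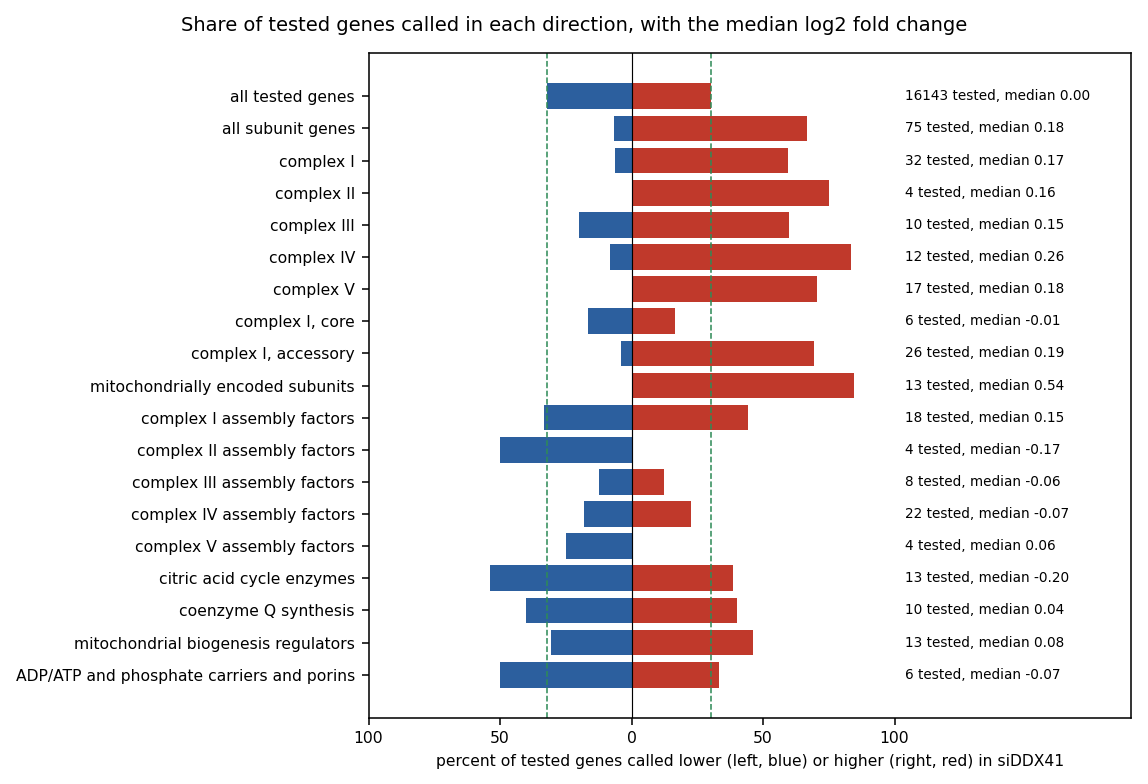
Percent of tested genes called lower (left) and higher (right) in siDDX41 for the subunit genes, each complex and other gene groups, with dashed lines at 32.1% lower and 30.3% higher for all tested genes. All 5 complexes have 59.4% or more of their tested genes on the higher side, with medians between 0.15 and 0.26.

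Library by library, the median log2 ratio of the tested members to their siCtrl mean was -0.004, 0.03, -0.042, 0.015 and -0.003 in siCtrl libraries 1 to 5 and 0.22, 0.11, 0.19, 0.21 and 0.21 in siDDX41 libraries 1 to 5. All siDDX41 medians were above all siCtrl medians, in the members together and within each of the 5 complexes. The second siDDX41 library stood apart, with the lowest value of its group in 48 of 75 tested members (64.0%), beside 3551 of the 16143 tested genes. The third siCtrl library was likewise the lowest of its group in 42 (56.0%), beside 3824 of the 16143. Without siDDX41 replicate 2, 53 members rose and 4 fell, and without siCtrl replicate 3, 47 rose and 5 fell. Why these libraries were low for the subunit genes was not tested. The summed level of all members was between 7965 and 8399 CPM in siCtrl and between 8774 and 9344 CPM in siDDX41.

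**Figure D4:**
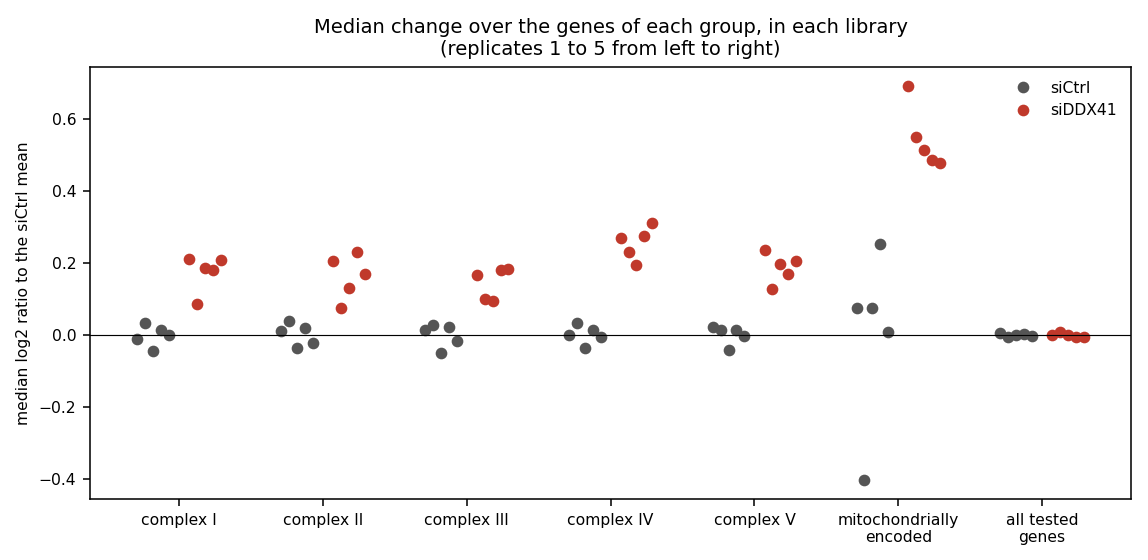
Median log2 ratio to the siCtrl mean (vertical axis) in each library for the tested genes of each complex, the mitochondrially encoded subunits and all tested genes. For each complex all siDDX41 points lie above all siCtrl points, and for mitochondrially encoded subunits the second siCtrl library is lowest at -0.40.

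Levels can be compared between genes only per length. Divided by the length of all exons, the median level of the tested members in siCtrl was 37.7 CPM per kb, with ATP5F1B (274 CPM per kb), NDUFS5 (227 CPM per kb) and COX8A (219 CPM per kb) the highest. Divided by the length of the canonical transcript, the median was 83.6 CPM per kb and the highest were ATP5MC2 (404 CPM per kb), COX4I1 (363 CPM per kb) and ATP5F1B (349 CPM per kb). The order of the genes therefore depends on the length used. Lengths and exon overlaps are from a later annotation release than the counting, so the exons counted may differ. Across the 75 tested genes, which are not independent replicates, the log2 fold change had a Spearman correlation of -0.21 with GC content, -0.15 with canonical length and 0.088 with mean level. The tested members are short and abundant transcripts, with a median canonical length of 758 bases beside 3019 for all tested genes, and a median level of 83.4 CPM beside 20.6 CPM.

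The other 14 members had too few counts to be tested, at most 18 in a library. COX4I2, COX6A2, COX7A1, COX8C, NDUFA6 and NDUFC2-KCTD14 had no count in any library. A count of 0 allows up to 3 counts, or 0.120 to 0.138 CPM depending on the library, and this floor covers counting error only. Most of the 14 are tissue-restricted isoforms or readthrough genes. NDUFS1, NDUFA3, NDUFA6 and NDUFA7, however, are subunits that every complex I is known to contain, and they were singled out after their values were seen. Over all 10 libraries NDUFS1 had 1 count, NDUFA3 39 and NDUFA7 89. NDUFV2 and NDUFA13, also present in every complex I, passed the filter with only 487 and 456 counts, and the pseudogene NDUFV2P1 had 471. Pseudogenes with matching symbols together had 949 counts, 0.0463% of the 2050621 counts of the members. The symbol rule cannot match pseudogenes of the SDH genes, CYC1 or ATP5F1A to ATP5F1E. Theirs were not counted, although those genes are part of the member total. What keeps these genes near 0 in the deposited tables was not tested, and NDUFV2 and NDUFA13 are included in the counts and medians of tested members. Of the 89 members, 48 share exon bases with another gene, so another way of counting could divide their reads differently.

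Cytochrome c and subunits whose symbols fall outside the rule were examined as well. CYCS, the cytochrome c that carries electrons from complex III to complex IV, was read at 197, 186, 178, 187 and 178 CPM in siCtrl libraries 1 to 5 and 104, 96.2, 106, 108 and 95.7 CPM in siDDX41 libraries 1 to 5. All siDDX41 libraries were lower (log2 fold change -0.86, SE 0.035, adjusted p = 3.55e-18), as they were for CYC1, its electron donor in complex III. NDUFAB1, the acyl carrier protein in complex I, rose (log2 fold change 0.42, SE 0.04, adjusted p = 1.44e-10), DMAC2L fell (log2 fold change -0.20, SE 0.041, adjusted p = 7.64e-05), and ATP5IF1, an inhibitor of ATP synthase, was not called.

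The 13 subunits encoded in mitochondrial DNA are the partners of these proteins in complexes I, III, IV and V. Of all tested genes, 30.3% rose and 32.1% fell. Of the 13, all tested, 11 rose (84.6%) and 2, MT-ND5 and MT-ND6, did not pass, with a median log2 fold change of 0.54. None fell in edgeR, at an unadjusted p under 0.05 (0 genes) or in DESeq2 (0 genes). For MT-ND5 all siDDX41 libraries were above all siCtrl libraries (log2 fold change 0.36, SE 0.12, adjusted p = 0.0253). The groups of MT-ND6 overlapped (log2 fold change 0.19, SE 0.18, adjusted p = 0.373). MT-CO3, a core subunit of complex IV, was read at 2267, 1783, 2244, 2579 and 2210.0 CPM in siCtrl libraries 1 to 5 and 3883, 3495, 3742, 3519.8 and 3441 CPM in siDDX41 libraries 1 to 5. The second siCtrl library was the lowest of all and the groups did not overlap (log2 fold change 0.71, SE 0.089, adjusted p = 8.12e-05). MT-CO1, the catalytic subunit (log2 fold change 0.64, SE 0.10, adjusted p = 0.000402), and MT-ND3 of complex I (log2 fold change 0.73, SE 0.10, adjusted p = 0.000118) also rose. Median log2 ratios of this group were 0.075, -0.40, 0.076, 0.25 and 0.007 in siCtrl libraries 1 to 5 and 0.69, 0.55, 0.51, 0.48 and 0.48 in siDDX41 libraries 1 to 5, a wider spread within groups than for the nuclear genes. Leaving out 1 library at a time gave 8 to 12 rises among the 13. With the replicate numbers as a block there were fewer rises than this range, although the numbers do not show a pairing. That count stands with the other results on processing at the end.

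Assembly factors, which help build the complexes and are not part of them, moved in both directions, as did all tested genes, of which 30.3% rose and 32.1% fell. For complex I, 8 of 18 (44.4%) rose and 6 (33.3%) fell, with a median log2 fold change of 0.15. TIMMDC1 (log2 fold change 0.83, SE 0.032, adjusted p = 2.07e-19) and NDUFAF8 (log2 fold change 0.57, SE 0.044, adjusted p = 1.68e-12) rose, and COA1 fell (log2 fold change -0.56, SE 0.031, adjusted p = 6.2e-16). For complex II, 2 of 4 fell, SDHAF1 (log2 fold change -0.34, SE 0.074, adjusted p = 0.000173) and SDHAF4 (log2 fold change -0.38, SE 0.10, adjusted p = 0.00188). SDHAF3 was not called (log2 fold change 0.17, SE 0.065, adjusted p = 0.0273). It passed without siCtrl replicate 1 or siDDX41 replicate 5, with adjusted p down to 0.00235, with no filter on low counts, and with the replicate numbers as a block. With a GC correction its log2 fold change was 0.088. None of these 4 rose in edgeR (0 genes), with 1 at an unadjusted p under 0.05 and 0 in DESeq2. The median was -0.17.

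For complex III, 1 of 8 assembly factors rose and 1 fell, with a median of -0.056. BCS1L, which inserts the Rieske protein, fell (log2 fold change -0.31, SE 0.048, adjusted p = 1.15e-06), opposite in direction to UQCRFS1. UQCC6 rose (log2 fold change 0.30, SE 0.092, adjusted p = 0.00523), a call lost without siCtrl replicate 1, 3 or 5 or siDDX41 replicate 2 or 4 (adjusted p up to 0.0205) or in DESeq2, which leaves 0 rises. With a GC or a length correction 2 of the 8 rose. UQCC3 was not called (log2 fold change -0.21, SE 0.078, adjusted p = 0.0222) but passed without siCtrl replicate 4 (adjusted p = 0.00174) and with no filter on low counts, and was -0.12 with a GC correction. For complex IV, 5 of the 22 tested of 24 rose (22.7%) and 4 fell (18.2%), with a median of -0.074. COX15, needed to make heme A, fell (log2 fold change -0.72, SE 0.039, adjusted p = 4.04e-16), while LRPPRC, which stabilises mitochondrial mRNAs (log2 fold change 0.30, SE 0.025, adjusted p = 7.64e-12), and COA6 (log2 fold change 0.48, SE 0.045, adjusted p = 1.58e-10) rose. Of the other 2, SURF1 had no count in any library, for a cause that was not tested, and SCO2 was not matched by name in the tables.

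For complex V, 1 of 4 assembly factors fell, with a median of 0.056, and none rose in edgeR (0 genes), with 2 at an unadjusted p under 0.05 and 0 in DESeq2. ATPAF2, a chaperone of the F1 head, fell (log2 fold change -0.17, SE 0.057, adjusted p = 0.0092). Its call was lost without siCtrl replicate 2, 3, 4 or 5 or siDDX41 replicate 1, 3 or 4 (adjusted p up to 0.0423) and in 6 of 9 other settings, with a log2 fold change of -0.077 under a GC correction. TMEM70 (log2 fold change 0.13, SE 0.05, adjusted p = 0.0189) and TMEM242 (log2 fold change 0.12, SE 0.049, adjusted p = 0.0348) were not called, though TMEM70 passed without siDDX41 replicate 2 (adjusted p = 0.00798). TMEM70 also passed with upper quartile scaling, and both passed with a length correction, which gives 1 and 2 rises in place of 0.

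Among 13 regulators of mitochondrial biogenesis, 6 rose (46.2%) and 4 fell (30.8%), beside 30.3% and 32.1% of all tested genes, with a median of 0.076. In DESeq2, 7 were higher. The coactivator PPARGC1B (log2 fold change 1.31, SE 0.07, adjusted p = 2.8e-16), GABPB2, a partner of GABPA (log2 fold change 0.90, SE 0.057, adjusted p = 2.24e-14), and TFB1M (log2 fold change 0.69, SE 0.055, adjusted p = 2.67e-12) rose, as did POLRMT, the mitochondrial RNA polymerase (log2 fold change 0.59, SE 0.056, adjusted p = 3.05e-09), the nuclear receptor ESRRA (log2 fold change 0.56, SE 0.05, adjusted p = 4.41e-11) and TFB2M (log2 fold change 0.17, SE 0.049, adjusted p = 0.00311). PPARGC1A (log2 fold change -1.08, SE 0.14, adjusted p = 1.5e-07), NRF1 (log2 fold change -0.26, SE 0.044, adjusted p = 6.11e-06), GABPB1 (log2 fold change -0.20, SE 0.035, adjusted p = 1.14e-05) and PPRC1 (log2 fold change -0.13, SE 0.031, adjusted p = 0.000421) fell. GABPA and YY1 were not called, and neither was TFAM, although all its siDDX41 libraries were above all its siCtrl libraries (log2 fold change 0.076, SE 0.026, adjusted p = 0.0109). The transcript level of a regulator does not measure its activity.

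Enzymes that feed the chain were compared next. Of 13 citric acid cycle enzymes outside complex II, 5 rose (38.5%) and 7 fell (53.8%), with a median of -0.20, beside 30.3% and 32.1% of all tested genes. OGDH (log2 fold change -0.52, SE 0.037, adjusted p = 5.56e-13) and DLST (log2 fold change -0.51, SE 0.027, adjusted p = 3.27e-16) of the oxoglutarate dehydrogenase complex fell, whereas its other component DLD (log2 fold change 0.24, SE 0.033, adjusted p = 2.14e-07) and SDHA, which acts later in the cycle, rose. Of 10 genes for coenzyme Q synthesis, 4 rose and 4 fell (40.0% each), with a median of 0.039. COQ3 rose (log2 fold change 0.49, SE 0.051, adjusted p = 7.87e-10), and COQ6 (log2 fold change -0.47, SE 0.037, adjusted p = 2.28e-12) and COQ8A (log2 fold change -0.56, SE 0.066, adjusted p = 1.47e-08) fell. Of the ADP/ATP and phosphate carriers and porins, 6 of 7 were tested, 2 rose and 3 fell, with a median of -0.072. The ADP/ATP carriers SLC25A5 (log2 fold change -0.17, SE 0.026, adjusted p = 1.15e-06) and SLC25A4 (log2 fold change -0.27, SE 0.061, adjusted p = 0.000251) fell and the porin VDAC3 rose (log2 fold change 0.11, SE 0.029, adjusted p = 0.00136), while SLC25A6 had no count, again for a cause that was not tested.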

How the data were processed

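Counts per gene from 10 RNA-sequencing libraries, 5 siCtrl and 5 siDDX41, were used as deposited by the authors, as raw counts without normalization. The submitters' processing notes name bcl2fastq 2.19, STAR 2.7 on hg38 and featureCounts 1.6, and the treatment of strand and of reads with several positions is not stated in the sources used here. Genes were joined by Ensembl identifier to GENCODE release 44, which matched 56948 of 63299 genes and 98.7% of those tested, for names, positions and lengths. The test was that of edgeR 4.0.16 in R 4.3.3, on genes kept by filterByExpr, with TMM scaling, a robust glmQLFit and glmQLFTest. P-values were adjusted over all tested genes (Benjamini-Hochberg) and called under 0.01, and standard errors come from the F statistic. DESeq2 1.42.0 and limma 3.58.1 served alternatives, and Python 3.11.15 with pandas 2.3.3, scipy 1.17.1 and matplotlib 3.10.9 the summaries. Ratios to the siCtrl mean used a pseudocount of 0.5 CPM.

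Named genes are DDX41, up to 3 members per complex and direction with the largest change, a mean of at least 5 CPM and groups that do not overlap, the SDH and ATP5MC genes, the complex IV isoform pairs, up to 3 genes with the smallest adjusted p from each other list, and regulators. The members and lists were chosen with earlier results of these data known. Alternatives changed the test, the scaling, the filter, the threshold, the assignment of NDUFA4 and readthrough genes, the length, a GC or length correction, the replicate block and the libraries used. The length correction used the length of all exons, not that of the canonical transcript. The fit was tested on simulated data.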

Additional observations from a re-analysis of the deposited data

Results flagged for a closer look

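In 128 groups of 5 libraries, the siCtrl and the siDDX41 libraries of 64 genes picked for naming by rule and tested, the gap between the most extreme library and the nearest of the others was compared with the range of the group. Picked genes with too few counts and further genes named in the text, such as NDUFV1 and some regulators, were not examined. Chance alone marks about 1 in 20 groups, and 9 of the 128 were marked. Among the subunit genes, NDUFB5 was high in the second siCtrl library, at 71.9 CPM beside 66.1 to 67.7 CPM in the others. ATP5ME was low in the second siDDX41 library, at 44.7 CPM beside 46.8 to 47.4 CPM. COX7A2 was low in the third siCtrl library, at 119.9 CPM beside 122.0 to 122.8 CPM. ATP5ME and COX7A2 were thus low in the libraries that were lowest for most subunit genes.

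Among the other genes, TIMMDC1 was high in the second siCtrl library, at 66.4 CPM beside 63.1 to 63.7 CPM. SDHAF3 was high in the first siCtrl library, at 28.5 CPM beside 24.2 to 25.4 CPM. BCS1L was high in the fifth siDDX41 library, at 25.8 CPM beside 21.9 to 22.9 CPM. UQCC6 was high in the fourth siCtrl library, at 6.59 CPM beside 4.58 to 5.14 CPM. COX15 was low in the third siCtrl library, at 62.6 CPM beside 64.6 to 65.3 CPM. PPARGC1B was high in the second siCtrl library, at 6.57 CPM beside 5.71 to 5.80 CPM. The cause of these values was not tested.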

How the results depend on the processing

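All alternatives chosen at the start were run. Leaving out 1 library at a time gave 44 to 53 members higher and 4 or 5 lower, and other tests, scalings, filters and corrections gave 46 to 55 higher and 4 or 5 lower. In each of these, at least 44 of the 50 members that rose and 4 of the 5 that fell were called again, and none was called in the opposite direction. The median of the members stayed between 0.17 and 0.21 and the log2 fold change of DDX41 between -2.04 and -1.90. Under any scaling, filter or correction, the median shift of a gene from the main result was at most 0.0214 in size. The median of all genes lay between -0.013 and 0.0151.

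Complex I had 1 lower member in place of 2 with the DESeq2 Wald test, DESeq2 size factors, upper quartile scaling, no filter on low counts, GC correction and length correction, and 1 to 2 when 1 library was left out. In complex IV, 2 members were lower in place of 1 without a filter, which tests more genes. ATP5MC2 turned from -0.007 to 0.081 (adjusted p = 0.00641, edgeR) under GC correction. With a log2 fold change over 0.25 required, which by construction calls fewer genes, 26 members were higher and 3 lower, with 9 and 1 in complex I, 1 higher in complex II, 3 and 1 in complex III, 6 and 1 in complex IV and 7 higher in complex V. The median level per length was 83.6 in place of 37.7 CPM per kb with the canonical length, which is shorter. The causes of the other changes were not tested.

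The replicate numbers do not show a pairing: same-numbered libraries correlated between -0.049 and 0.041 in their deviations, and 1 of 10 was closest to its own number. With the numbers as a block, 49 members were higher and 5 lower, and 6 in place of 11 mitochondrially encoded subunits were higher, COX6B1 was not called and SDHAF3 was called higher. Of 2223 values under 24 alternatives, 2073 kept their direction and side of the threshold or stayed near their size. The 14 members with few counts were not tested.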
